A study of Mus musculus with 18 samples.

Results

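Polyamine metabolism in the denervated mouse whisker pad was described through 9 genes, Odc1, Amd1, Srm, Sms, Sat1, Smox, Paox, Oaz1, and Oaz2. They were chosen by name, as the enzymes that make and break down polyamines and the antizymes that restrain the pathway, out of 35150 genes for which transcript values could be summed. Earlier results of these data were known when the choice was made. Counts among the 9 genes, set beside shares of all genes below, are therefore descriptions and not tests of an independent list. RNA was sequenced from biopsies of skin and muscle of the rostral whisker pad of 9 adult mice, whose strain is not given in the sources used here. The study as a whole used both sexes, and the sex of these 9 mice is not given. On the right, 2 facial nerve branches, the buccal and the superior marginal, were cut (denervated). On the left of the same mouse the skin was opened and closed again over an uncut nerve (sham). Right and left were never exchanged, so an effect of side cannot be told apart from one of the cut nerve. Tissue was taken 1, 3, or 7 days after surgery from 3 mice per day, which gave 18 samples in 9 pairs.

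Polyamines are small positively charged molecules that bind RNA and DNA and are needed for growth and for protein synthesis. Ornithine decarboxylase (Odc1) makes putrescine from ornithine, S-adenosylmethionine decarboxylase (Amd1) supplies the aminopropyl groups, and spermidine synthase (Srm) and spermine synthase (Sms) add these groups in turn to give spermidine and spermine. Spermidine/spermine acetyltransferase (Sat1), spermine oxidase (Smox), and the acetylpolyamine oxidase Paox run the pathway backward. The antizymes Oaz1 and Oaz2 bind ornithine decarboxylase, send it to the proteasome, and slow polyamine uptake. In skeletal muscle, the pathway is known to respond to hormones and to loading and unloading.

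The deposited values are TPM, transcript abundances scaled for length and library, which the authors also normalized between samples, and a gene's level is the sum over its transcripts. TPM keep no read count, so the depth of the libraries is unknown and no counting interval is given. Fold changes are differences on the log2(TPM + 0.5) scale, right minus left, and a change was called at an adjusted p under 0.05 (limma, adjusted over all genes tested). In bulk biopsies, more RNA per cell and more cells of a type cannot be told apart. All 8 skeletal muscle markers were found in every library, but both libraries of mouse 1 of day 1 stood apart with little muscle: the markers summed to 5808 TPM on its sham side and 8559 TPM on its denervated side, compared with at least 16905 TPM in the other libraries. The right library of mouse 2 of day 7 held 190112 TPM of 4 globin genes, where the others held at most 62652 TPM. The labels were checked on muscle genes. Myog, a myogenic factor that loss of the nerve induces, was higher on the right by 5.21 ± 0.27 (SE) at day 3 and by 4.37 ± 0.25 at day 7. All 6 denervation markers rose at both days, where 1.01% of all genes were called higher. Over all 18 samples, 5 of the 6 passed the filter on low values.

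On the sham side the 9 genes spanned a wide range of levels. Oaz1 was the highest at 682 ± 94.7 TPM (SD, n = 9), and Sat1 followed at 210.1 ± 52.1 TPM. Odc1 (91.7 ± 21.6 TPM) and Oaz2 (89.2 ± 18.3 TPM) overlapped, with Odc1 above Oaz2 in 6 of 9 sham libraries. Amd1 (37.6 ± 3.24 TPM), Srm (34.3 ± 5.05 TPM), Smox (28.5 ± 5.76 TPM), Paox (25.9 ± 5.0 TPM), and Sms (21.2 ± 3.52 TPM) lay within a narrow band in which every neighbor's range overlapped the next. Thus the antizyme Oaz1, the acetyltransferase Sat1, and the pair Odc1 and Oaz2 were set off from the other enzymes, and Sms, the last step of synthesis, was the lowest of the 9.

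**Figure D1:**
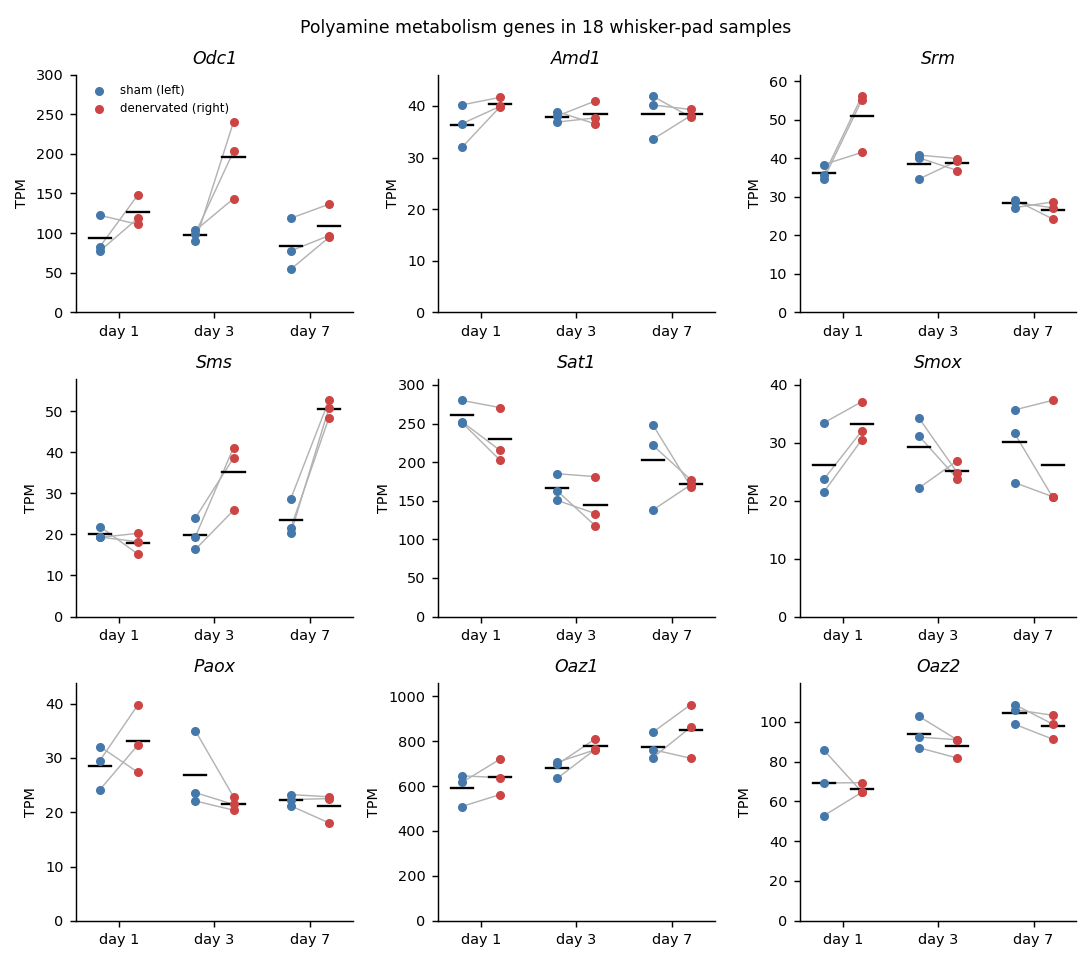
Level of each polyamine gene (TPM, linear axis from 0) in the sham (blue) and denervated (red) whisker pad at days 1, 3, and 7. Each point is 1 library, gray lines join the sides of a mouse, and black bars are the means of 3 mice. Sms separates by side at days 3 and 7, Odc1 and Oaz1 separate at day 3, and Srm separates at day 1.

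Of the 9 genes, Sms rose at day 7 and Odc1 rose over all days. At day 1, 0 of 9 genes passed the test, as did 0 of all 14776 genes (0%), and 1 of 9 had an unadjusted p under 0.05 (4.29% of all genes). At day 3, 0 of 9 passed compared with 1.45% of 14943 genes, and 2 of 9 had an unadjusted p under 0.05 (14.7% of all genes). At day 7, 1 of 9 passed compared with 1.53% of 15081 genes, and the same 1 had an unadjusted p under 0.05 (12.3% of all genes). Over all days, 1 of 9 passed compared with 3.1% of 14757 genes, and 2 of 9 had an unadjusted p under 0.05 (14.7% of all genes). The denervated side was called lower for 0 of 9 genes at each day and over all days, compared with 0% of all genes at day 1, 0.442% at day 3, 0.511% at day 7, and 1.18% over all days. The median fold change of the 9 was 0.16 at day 1, 0.01 at day 3, -0.08 at day 7, and 0.06 over all days, and that of all genes tested was 0.01, -0.01, 0.04, and 0.01.

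Odc1 makes the first polyamine, putrescine. At day 1 its levels were 122, 82.8, and 77.5 TPM on the sham sides of mice 1 to 3 and 111, 148, and 119 TPM on their denervated sides. At day 3 they were 89.5, 103, and 99.4 TPM on the sham sides and 240.2, 144, and 203 TPM on the denervated sides. At day 7 they were 119, 54.4, and 77.5 TPM on the sham sides and 136, 94.5, and 96.7 TPM on the denervated sides. The denervated side was higher in 8 of 9 mice, the exception being the muscle-poor mouse 1 of day 1, and the groups did not overlap at day 3. Over all days Odc1 rose by 0.62 ± 0.16 (SE, adjusted p = 0.041). The fitted difference was 0.97 ± 0.19 at day 3 (95% interval 0.51 to 1.44, adjusted p = 0.081). Day 1 gave 0.44 ± 0.21 (adjusted p = 0.999) and day 7 gave 0.44 ± 0.29 (adjusted p = 0.631). The call over all days was lost in 7 of the 9 fits that left out 1 mouse (adjusted p 0.065 to 0.138 there), and it held without mouse 1 of day 1 (adjusted p = 0.015) or mouse 1 of day 7 (adjusted p = 0.020). It was also lost when libraries were scaled to the muscle markers (0.73, adjusted p = 0.870), which moved the median of all genes by 0.10, with protein-coding transcripts alone (0.60, adjusted p = 0.084), with equal sums (adjusted p = 0.051), and with a filter of TPM above 0 (adjusted p = 0.052).

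Odc1 (chr12:17544794-17551505, plus strand, GENCODE M21 on GRCm38) was listed with 8 transcripts. Its protein-coding transcript, Odc1-201, held 58.8% of its TPM, and Odc1-205, which is annotated as a target of nonsense-mediated decay, held 32.4%. Both were higher on the denervated side at day 3, by 0.92 ± 0.21 and 1.12 ± 0.20, and neither passed the test among all transcripts (adjusted p = 0.224 and 0.128). The share of Odc1-205 was 29.6 ± 1.84% (SD, n = 3) on the sham side and 32.9 ± 2.45% on the denervated side at day 3, a difference on the order of the spread between mice.

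Sms makes spermine from spermidine. Its levels at day 1 were 21.9, 19.4, and 19.3 TPM on the sham sides of mice 1 to 3 and 15.2, 18.2, and 20.3 TPM on the denervated sides. At day 3 they were 16.4, 19.4, and 24.0 TPM on the sham sides and 25.9, 41.1, and 38.6 TPM on the denervated sides. At day 7 they were 20.2, 21.5, and 28.7 TPM on the sham sides and 50.8, 48.4, and 52.6 TPM on the denervated sides. Thus the groups overlapped at day 1 and did not overlap at days 3 and 7, when all 6 mice were higher on the denervated side, and the highest sham library was far below the lowest denervated library at day 7. Sms rose by 1.11 ± 0.15 at day 7 (SE, 95% interval 0.75 to 1.47, adjusted p = 0.020). The difference was 0.79 ± 0.22 at day 3 (adjusted p = 0.169) and -0.18 ± 0.13 at day 1 (adjusted p = 0.999). With a spread shared by all 18 samples the difference at day 3 passed the test as well (adjusted p = 0.034). The call at day 7 was lost without mouse 1, 2, or 3 of that day (adjusted p 0.114, 0.347, and 0.133), with fold changes of 1.01 to 1.23.

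Over all days Sms was higher by 0.57 ± 0.17 (adjusted p = 0.076), and without the muscle-poor mouse 1 of day 1 it passed (0.71, adjusted p = 0.013). The fitted effect of denervation on Sms was larger by 0.97 ± 0.26 at day 3 than at day 1 (adjusted p = 0.20) and by 1.28 ± 0.26 at day 7 than at day 1 (adjusted p = 0.075), so that a difference between days was not established by this test. Of the 9 genes 0 passed for any pair of days, compared with 0.122% of all genes for days 1 and 3, 0.163% for days 1 and 7, and 0% for days 3 and 7. At an unadjusted p under 0.05 the counts were 2, 2, and 0 of 9, compared with 9.22%, 7.14%, and 6.86% of all genes, and both times the 2 genes were Sms and Srm. Without mouse 1 of day 1, 1 of 9 passed for days 1 and 3 and for days 1 and 7.

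**Figure D2:**
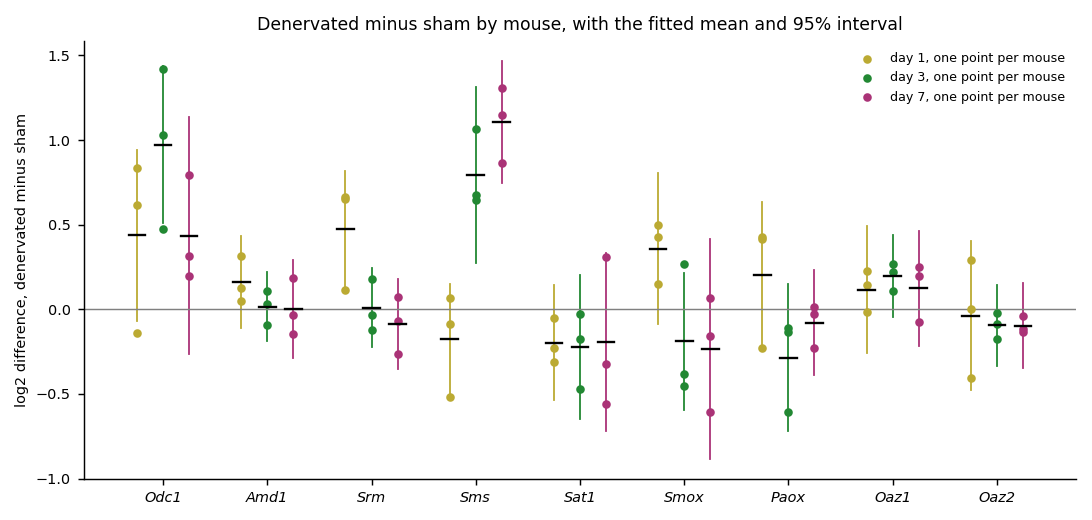
Difference between the denervated and sham side of each mouse (log2 scale, points) for the 9 genes at days 1, 3, and 7, with the fitted mean (black bars) and its 95% interval (lines). The interval lies above 0 for Srm at day 1, for Odc1 and Sms at day 3, and for Sms at day 7, where the fitted difference was 1.11.

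Sms (chrX:157443855-157492287, minus strand) was listed with 5 transcripts, and 2 of them held most of its TPM. Sms-201, the full protein-coding transcript, held 57.6%, and Sms-204, annotated as a target of nonsense-mediated decay, held 28.5%. Sms-204 lacks exon 8 of the 11 exons of Sms-201, a coding exon of 115 bases at chrX:157455994-157456108 whose length is not a multiple of 3. Apart from their ends, only reads that touch this exon or span its place can separate the 2 transcripts, so the split is uncertain. The exon is shown because it is the inner sequence that tells these transcripts apart, with its bases in capitals between 15 bases of each neighboring exon, read along the transcript from GENCODE M21.
Sms-201 exon 8: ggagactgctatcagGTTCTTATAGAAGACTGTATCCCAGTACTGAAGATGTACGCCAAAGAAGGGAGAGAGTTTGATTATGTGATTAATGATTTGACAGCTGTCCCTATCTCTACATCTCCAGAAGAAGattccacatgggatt

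Sms-204 rose at day 7, from 5.13, 4.53, and 7.00 TPM on the sham sides to 18.3, 20.2, and 17.7 TPM on the denervated sides of mice 1 to 3. The groups did not overlap. The change was 1.69 ± 0.19 (SE, adjusted p = 0.037 among 33805 transcripts, of which 0.385% passed). This call was lost when blocked on the mouse (adjusted p = 0.151), without the trend (adjusted p = 0.057), with a filter of TPM above 0 (adjusted p = 0.064), and without mouse 1, 2, or 3 of that day (adjusted p = 0.315, 0.467, and 0.291). Sms-201 was at 14.1 ± 2.35 TPM (SD, n = 3) on the sham side and 26.9 ± 1.92 TPM on the denervated side at day 7, a difference of 0.92 ± 0.16 that did not pass (adjusted p = 0.117). As a share of Sms, Sms-204 was at most 25.3% in the sham libraries and 33.7 to 41.8% in the denervated libraries of day 7. At day 3 it was 18.5 to 35.2% and 21.8 to 27.2%, respectively. The shares therefore separated by side at day 7 and overlapped at day 3, and the difference in share was not tested. In the deposited values the exon-skipped transcript and the full transcript were thus both higher at day 7. At day 3 the difference in Sms lay mostly in Sms-201, at 11.1 ± 0.988 TPM on the sham side and 22.9 ± 6.09 TPM on the denervated side.

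Srm, which makes spermidine, the substrate of Sms, showed another pattern (chr4:148591503-148594993, plus strand). At day 1 Srm was at 38.3, 34.6, and 35.5 TPM on the sham sides and 41.5, 55.1, and 56.1 TPM on the denervated sides, and the groups did not overlap. The difference of 0.48 ± 0.14 had an unadjusted p of 0.014 and did not pass (adjusted p = 0.999). At day 3 the 6 libraries lay between 34.6 and 40.8 TPM, and at day 7 between 24.2 and 29.2 TPM, with fitted differences of 0.01 ± 0.10 and -0.09 ± 0.11. The 95% intervals of these differences ran from -0.23 to 0.24 and from -0.35 to 0.18.

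The log2 ratio of Sms to Srm in the same library does not depend on how libraries are scaled, and it was taken after the values had been seen. It was -0.84 ± 0.04 (SD, n = 3) on the sham side and -1.51 ± 0.08 on the denervated side at day 1, lower in 3 of 3 mice. At day 3 it was -0.96 ± 0.19 on the sham side and -0.16 ± 0.38 on the denervated side, and at day 7 it was -0.29 ± 0.32 and 0.93 ± 0.12, higher in 3 of 3 mice each time. So Srm exceeded Sms in every library of day 1, and Sms exceeded Srm in every denervated library of day 7. The summed level of the 2 synthases was 51.8 ± 3.53 TPM on the sham side and 77.3 ± 3.49 TPM on the denervated side at day 7.

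**Figure D3:**
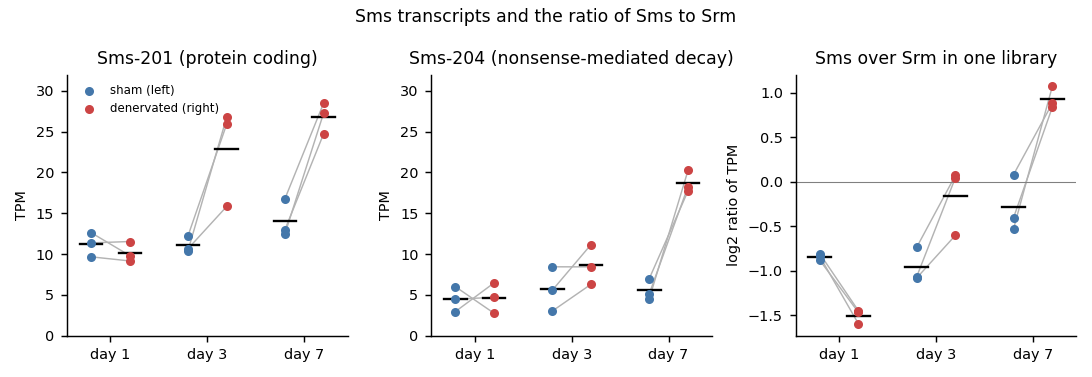
Levels of the Sms transcripts Sms-201 and Sms-204 (TPM) and the log2 ratio of Sms to Srm, each in the sham (blue) and denervated (red) libraries of days 1, 3, and 7. Lines join the sides of a mouse and bars are means of 3. Sms-204 stands apart on the denervated side at day 7 (17.7 to 20.2 TPM), and the ratio is below 0 in all day 1 libraries and above 0.8 in the denervated libraries of day 7.

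Amd1, whose product limits the supply of aminopropyl groups, varied least among the 4 synthesis genes (chr10:40287458-40302186, minus strand). All 18 libraries lay between 31.9 and 41.9 TPM, and the differences at days 1, 3, and 7 were 0.16 ± 0.11, 0.02 ± 0.08, and 0.0022 ± 0.12. The 95% interval over all days ran from -0.06 to 0.18. Amd1 shares most of its sequence with its near copy Amd2, which was listed at 2.64 TPM or less, so the split of reads between them is uncertain. As a group, 1 of 4 synthesis genes rose at day 7 (Sms, compared with 1.53% of all genes called) and 1 of 4 over all days (Odc1, compared with 3.1%). The median fold change of the 4 was 0.30, 0.40, and 0.22 at days 1, 3, and 7, where that of all genes was 0.01, -0.01, and 0.04.

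The proximal promoters of the 2 genes that passed a test are shown, as RefSeq and GRCm38.p6 give them, from 250 bases before the RefSeq start and cut where the GENCODE gene begins. Capitals mark CACGTG, the E-box letters that Myc and its relatives can bind, and GGGCGG on either strand, the GC box.
Sms, chrX:157492288-157492537, minus strand: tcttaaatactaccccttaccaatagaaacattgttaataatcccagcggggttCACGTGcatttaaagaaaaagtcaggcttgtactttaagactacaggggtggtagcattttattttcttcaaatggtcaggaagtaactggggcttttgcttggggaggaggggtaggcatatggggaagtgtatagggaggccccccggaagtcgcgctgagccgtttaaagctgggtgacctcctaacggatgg
Odc1, chr12:17544623-17544793, plus strand: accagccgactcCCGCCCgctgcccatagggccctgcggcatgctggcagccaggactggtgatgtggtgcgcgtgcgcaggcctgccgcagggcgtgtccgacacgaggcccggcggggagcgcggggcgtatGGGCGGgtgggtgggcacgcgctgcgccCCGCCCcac

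The Sms window held CACGTG 1 time and no GGGCGG, and the Odc1 window held GGGCGG 3 times and no CACGTG. In the 250 bases before a start site, CACGTG was found in 6.02% and GGGCGG, on either strand, in 32.7% of 32817 promoters. Of the 8 genes with a promoter entry, 1 (Sms) held CACGTG and 7 held GGGCGG at one of their start sites. These are matches of letters and not measured binding. A second RefSeq start site of Sms, not shown, held GGGCGG 4 times.

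The breakdown genes were not called at any day, and all 3 had a negative fitted difference at days 3 and 7. Sat1, the rate-limiting enzyme of polyamine breakdown (chrX:155213132-155216449, minus strand), was at 261 ± 16.2 TPM (SD, n = 3) on the sham side and 229.6 ± 36.2 TPM on the denervated side at day 1, 166 ± 17.5 and 144 ± 33.2 TPM at day 3, and 203 ± 57.9 and 172 ± 4.52 TPM at day 7. It was lower on the denervated side in 8 of 9 mice, and mouse 2 of day 7, with the globin-rich library, was the exception. The difference over all days was -0.20 ± 0.11 (adjusted p = 0.419, 95% interval -0.43 to 0.02). Transcripts with a retained intron made up much of Sat1, and its protein-coding transcript Sat1-201 held 50.9% of its TPM. With protein-coding transcripts alone the day 7 difference was 0.0046, compared with -0.19 for all transcripts.

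Smox, which oxidizes spermine (chr2:131491496-131525922, plus strand), was at 26.2 ± 6.36 and 33.2 ± 3.42 TPM on the sham and denervated sides at day 1, 29.2 ± 6.22 and 25.2 ± 1.58 TPM at day 3, and 30.1 ± 6.40 and 26.2 ± 9.62 TPM at day 7. Its difference was higher in 3 of 3 mice at day 1 and in 1 of 3 mice at days 3 and 7. The groups of Smox overlapped at every day. Paox, the oxidase that acts on acetylated polyamines (chr7:140115799-140137224, plus strand), was at 28.6 ± 4.05 and 33.2 ± 6.29 TPM at day 1, 26.9 ± 7.07 and 21.6 ± 1.23 TPM at day 3, and 22.3 ± 1.04 and 21.1 ± 2.69 TPM at day 7. Over all days the differences were -0.02 ± 0.14 for Smox and -0.05 ± 0.11 for Paox (adjusted p = 0.971 and 0.896).

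Oaz1, the most abundant antizyme (chr10:80826656-80829290, plus strand), was at 590 ± 71.9 and 639.6 ± 78.7 TPM on the sham and denervated sides at day 1, 679 ± 38.8 and 779 ± 27.5 TPM at day 3, and 776 ± 58.0 and 849.5 ± 120.2 TPM at day 7. The groups did not overlap at day 3, and the denervated side was higher in 7 of 9 mice. The difference over all days was small, 0.15 ± 0.07 (adjusted p = 0.366). In all, the groups did not overlap, with the denervated side higher, for 1 of 9 genes at day 1 (Srm), 3 of 9 at day 3 (Odc1, Sms, and Oaz1), and 1 of 9 at day 7 (Sms), compared with 5.61%, 11.7%, and 10.6% of all genes. For 0 of 9 genes the denervated side lay wholly below the sham side, compared with 3.95%, 9.82%, and 7.06% of all genes.

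Oaz2 as a gene (chr9:65668001-65690300, plus strand) had differences of -0.04 ± 0.18, -0.09 ± 0.10, and -0.10 ± 0.11 at days 1, 3, and 7, and 95% intervals that spanned 0. In the deposited values the split between its 2 main transcripts, however, differed between the sides at day 3. Antizyme genes are read through a programmed frameshift, in which the ribosome slips forward at a stop codon, and annotation can write this as missing bases. The 2 transcripts, Oaz2-201 and Oaz2-206, share their first 291 and last 1550 bases and differ by 3 bases at this site, where Oaz2-201 omits 4 bases between exons 2 and 3 and Oaz2-206 omits 1 (exon 2 ends at base 65686268 or 65686271 of chromosome 9, and exon 3 starts at base 65686273). Only reads across the site can separate them, so the split between them is uncertain. The site is shown in 4 transcripts, read from GENCODE M21, with capitals for the shift site and stop codon and for what remains of them.
Oaz1-205, site intact: cctcggtggtgcTCCTGAtgtccctcaccc
Oaz2-205, site intact: cctctgtggtgcTCCTGAtgcccctcaccc
Oaz2-206: cctctgtggtgcTCCGAtgcccctcaccc
Oaz2-201: cctctgtggtgcGAtgcccctcaccc

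Oaz2-206 was at 38.2, 45.9, and 58.0 TPM on the sham sides and 4.07, 7.88, and 4.48 TPM on the denervated sides of day 3, while Oaz2-201 was at 33.4, 39.4, and 17.9 TPM and 69.9, 70.1, and 71.9 TPM. At day 1 Oaz2-206 was at 5.69 ± 2.53 TPM (SD, n = 3) on the sham side and 10.5 ± 8.04 TPM on the denervated side. In this deposited split, the sham side of day 3 was thus the one that lay away from the level of day 1. At day 3 Oaz2-206 was lower on the denervated side by 3.03 ± 0.28 (SE, adjusted p = 0.020 among 32794 transcripts, of which 0.299% passed), and the difference of Oaz2-201 was 1.28 ± 0.28 (adjusted p = 0.199). This call was lost when blocked on the mouse (adjusted p = 0.097), in 1 fit of all 18 samples (adjusted p = 0.076), and without mouse 1, 2, or 3 of that day (adjusted p = 0.158, 0.361, and 0.292). The sum of the 2 transcripts was between 71.5 and 85.3 TPM in all 6 libraries of day 3. The share of Oaz2-206 in this sum ran from 6.13 to 10.5% on the sham side of day 1, from 53.4 to 76.4% on the sham side of day 3, and from 30.8 to 76.4% on the sham side of day 7. On the denervated side these shares were 8.93 to 35.7%, 5.50 to 10.1%, and 6.82 to 79.1%. On the denervated side of day 7 the shares thus spanned about the range of both sides of day 3. Neither transcript carries the intact site, so reads that hold the intact site match neither in full. These differences therefore describe how the signal was divided between 2 records and not a measured change of RNA forms.

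**Figure D4:**
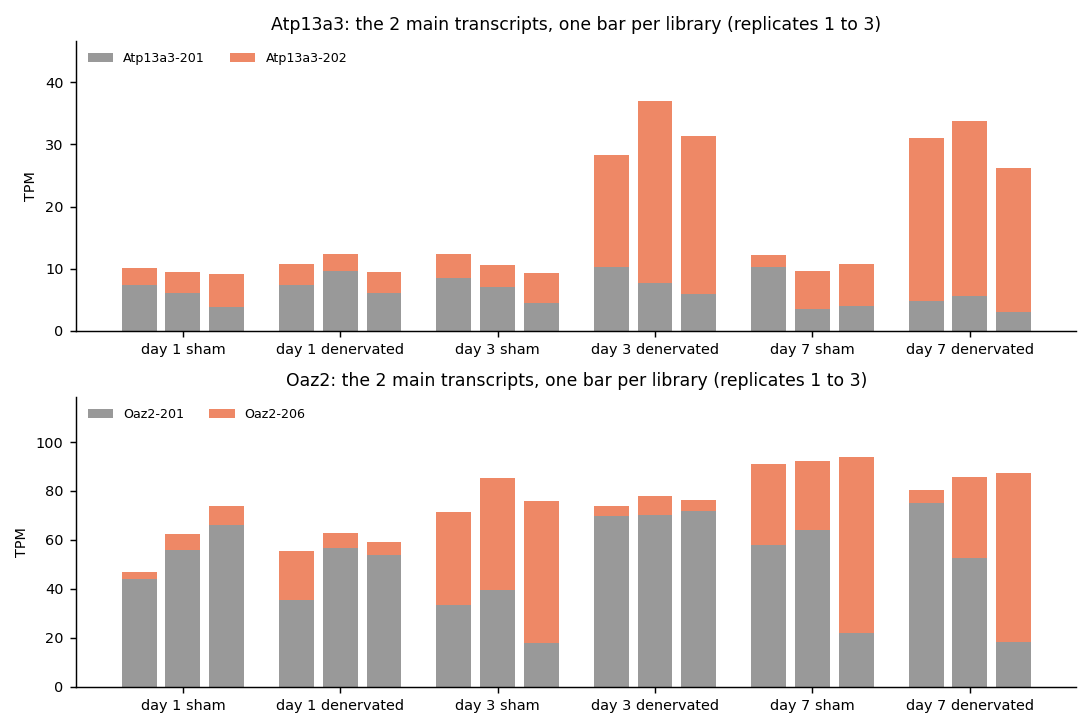
Stacked levels (TPM, from 0) of the 2 main transcripts of Atp13a3 (top) and Oaz2 (bottom), with 1 bar for each library of mice 1 to 3 at each day and side. Atp13a3-202 (orange) reaches at most 29.3 TPM on the denervated side at day 3 and 28.2 TPM at day 7, where the sham side has at most 6.85 TPM. Oaz2-206 (orange) makes up 53.4 to 76.4% of the bars on the sham side of day 3 and 5.50 to 10.1% on the denervated side.

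Of the 63 transcripts listed for the 9 genes, 34 passed the filter on low values at day 1 and 39 each at days 3 and 7. The number called was 0 at day 1, 1 at day 3 (Oaz2-206), and 1 at day 7 (Sms-204), compared with 0%, 0.299%, and 0.385% of all transcripts. At an unadjusted p under 0.05 the counts were 2, 6, and 5, compared with 4.18%, 10.3%, and 8.99% of all transcripts.

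On the sham side alone Oaz2 differed between days. It was at 52.7, 69.2, and 85.8 TPM at day 1, 86.9, 103, and 92.2 TPM at day 3, and 98.7, 109, and 106 TPM at day 7. Oaz2 was higher at day 7 than at day 1 by 0.62 ± 0.14 (SE, adjusted p = 0.047), as 1 of 9 genes compared with 0.976% of all genes (3 of 9 at an unadjusted p under 0.05 compared with 18.2%), and blocking on the mouse ended the call (adjusted p = 0.051). The lowest of these libraries was that of the muscle-poor mouse 1 of day 1, and without that mouse the difference was 0.44 (adjusted p = 0.153). The call was lost in 5 of the 6 fits that left out 1 mouse (adjusted p 0.076 to 0.176), and it held without mouse 3 of day 1 (0.78, adjusted p = 0.017). When libraries were scaled to the muscle markers the difference turned to -0.52 (adjusted p = 0.282), while the median of all genes moved by -1.09. The 8 skeletal muscle markers were themselves all higher on the sham side at day 7 than at day 1, with a median fold change of 1.07. Of these 8, 6 had an unadjusted p under 0.05 and 0 were called. The days came from different mice, so a change of Oaz2 with time cannot be told apart from a difference in the tissue of these mice. For the other pairs of days, 0 of 9 genes passed on the sham side, as did 0% of all genes, and 2 of 9 (days 1 and 3) and 1 of 9 (days 3 and 7) had an unadjusted p under 0.05, compared with 13.4% and 13.1% of all genes.

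Taken mouse by mouse over the 9 mice, the mean difference was 0.62 ± 0.47 (SD, n = 9) for Odc1, higher in 8 of 9 mice. Of all genes, 7.39% were higher in 8 or 9 mice. It was 0.57 ± 0.62 for Sms and 0.15 ± 0.12 for Oaz1, each higher in 7 of 9 mice. The exact two-sided sign-flip permutation test gave p = 0.0078 (adjusted p = 0.134) for Odc1, 0.027 (adjusted p = 0.222) for Sms, and 0.016 (adjusted p = 0.175) for Oaz1, where 0.0039 is the smallest p that 9 mice allow. After adjustment over all genes 0 of 9 genes passed, as did 0% of all genes, and 3 of 9 had an unadjusted p under 0.05 compared with 16.2% of all genes.

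The 33 other genes of the pathway were arranged in 6 lists by role. Of these, 28 could be tested at days 1 and 3 and over all days and 29 at day 7. The count of called genes was 0 at day 1, 1 at day 3, 1 at day 7, and 1 over all days, compared with 0%, 1.45%, 1.53%, and 3.1% of all genes, and it was each time Atp13a3 of the transport list (5 genes). None was called lower. At an unadjusted p under 0.05 the counts were 4, 5, 1, and 5, compared with 4.29%, 14.7%, 12.3%, and 14.7% of all genes. The median fold change of the list was 0.17, -0.03, -0.04, and 0.01 in these comparisons, compared with 0.01, -0.01, 0.04, and 0.01 for all genes. In the lists of antizyme inhibitors (Azin1, Azin2) and Oaz3, arginine and ornithine supply (9 genes, among them Arg1 and Oat), the methionine cycle and salvage (9 genes, among them Mat2a), other acetylation and deacetylation (3 genes), and hypusine formation, the spermidine-derived modification of Eif5a (4 genes), 0 genes passed at any day. Otc, the liver enzyme that uses ornithine in the urea cycle, and Mat1a, the liver form of methionine adenosyltransferase, were listed at or near 0.

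**Figure D5:**
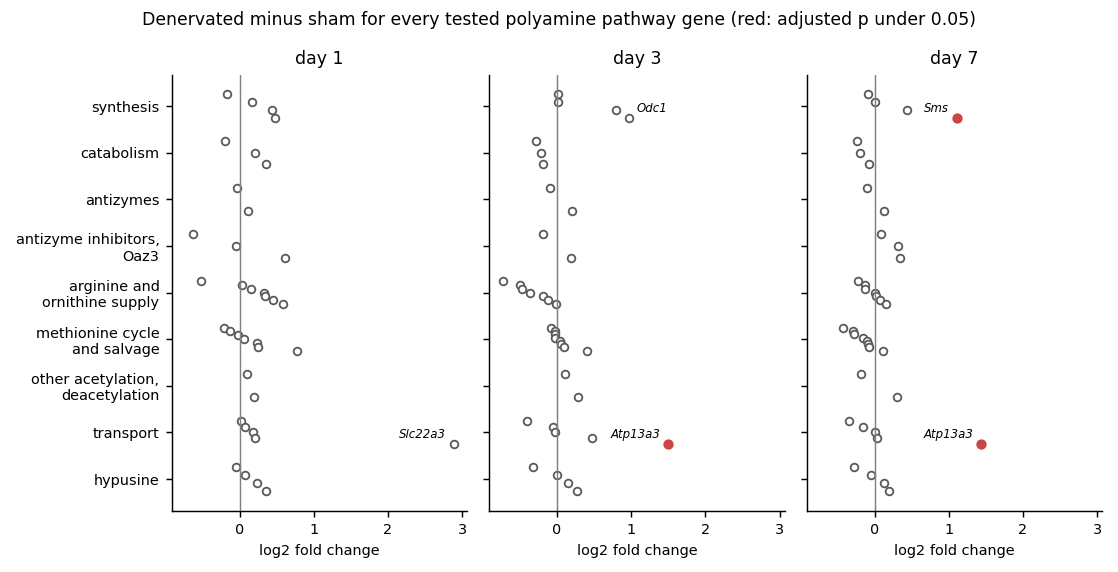
Fold change (log2 scale, denervated minus sham) of every polyamine pathway gene that could be tested at days 1, 3, and 7, with genes grouped by role on the vertical axis. Red points passed at an adjusted p under 0.05, which were Atp13a3 at days 3 and 7 and Sms at day 7. Open points did not pass.

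Atp13a3 encodes a P5B-type ATPase of the polyamine transport system. It was at 10.8 ± 0.764 and 11.4 ± 1.57 TPM (SD, n = 3) on the sham and denervated sides at day 1. At day 3 it was at 12.7, 12.2, and 9.20 TPM on the sham sides and 29.2, 37.1, and 32.3 TPM on the denervated sides. At day 7 it was at 14.4, 9.82, and 10.8 TPM on the sham sides and 34.9, 34.7, and 27.1 TPM on the denervated sides. The groups did not overlap at days 3 and 7. Atp13a3 rose by 1.5 ± 0.15 at day 3 (SE, adjusted p = 0.010), by 1.44 ± 0.18 at day 7 (adjusted p = 0.014), and by 1.00 ± 0.18 over all days (adjusted p = 0.0056). The day 3 call was lost without mouse 2 or 3 of that day (adjusted p = 0.185 and 0.131), and the day 7 call without mouse 2 or 3 of that day (adjusted p = 0.290 and 0.188). The call over all days was lost when libraries were scaled to the muscle markers (1.1, adjusted p = 0.103).

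In the deposited values the difference lay mostly in 1 of its 2 main transcripts. These differ by 1 exon, so only reads that touch this exon or span its place can separate them, and the split is uncertain. Atp13a3-202 was at 4.07 ± 0.644 and 24.3 ± 5.74 TPM on the sham and denervated sides at day 3, a rise of 2.42 ± 0.22 (adjusted p = 0.019, or 0.102 when blocked on the mouse). It was at 5.0 ± 2.64 and 25.9 ± 2.50 TPM at day 7 (2.41 ± 0.42, adjusted p = 0.118). The day 3 call was lost without mouse 1, 2, or 3 (adjusted p = 0.120, 0.397, and 0.279), and the day 7 difference passed with muscle scaling (adjusted p = 0.040) and in 1 fit of all 18 samples (adjusted p = 0.0030). Atp13a3-201 differed by 0.25 ± 0.29 and -0.24 ± 0.43 (adjusted p = 0.836 and 0.912) at days 3 and 7, with errors too wide to show that it was unchanged. Both encode protein, and they differ by exon 33 of the 34 exons of Atp13a3-202, a coding exon of 90 bases at chr16:30321806-30321895 on the minus strand that keeps the reading frame and that Atp13a3-201 lacks. It is shown in capitals between 15 bases of its neighbors.
Atp13a3-202 exon 33: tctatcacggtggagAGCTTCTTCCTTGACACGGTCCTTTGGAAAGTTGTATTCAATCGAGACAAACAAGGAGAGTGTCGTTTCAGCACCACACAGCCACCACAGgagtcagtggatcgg

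Of the 2 transcripts together, the one with this exon made up 31.4 to 52.0% on the sham side and 63.9 to 81.1% on the denervated side at day 3, and 16.2 to 64.1% and 83.6 to 88.3% at day 7. At day 1 the shares were 27.3 to 57.7% and 23.2 to 36.0%. The shares of the 2 sides overlapped at day 1 and did not overlap at days 3 and 7. This share was chosen after the values had been seen and was not tested.

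Slc22a3 and Mat2a, named here after their values were seen, had their largest differences at day 1. Slc22a3, an organic cation transporter, was at 0.394, 0.733, and 0.802 TPM on the sham sides and 4.68, 10.4, and 9.74 TPM on the denervated sides of day 1, and at 0.691 to 3.02 TPM in all libraries of days 3 and 7. The sham values of day 1 all lay under the 1 TPM filter, so Slc22a3 entered the day 1 test only through its denervated libraries. Its day 1 difference of 2.89 ± 0.33 did not pass (adjusted p = 0.192). Mat2a, which makes S-adenosylmethionine, was at 84.5 ± 5.45 and 145 ± 22.6 TPM at day 1, and its difference of 0.77 ± 0.14 did not pass either (adjusted p = 0.623).

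Of the genes tested over all days, the 4 whose side difference was most like that of Sms over the 9 mice were Rbks (Pearson's r = 0.961), Fam92a (r = 0.939), Uxs1 (r = 0.937), and Prkag3 (r = 0.931). Rbks is ribokinase, Uxs1 makes UDP-xylose, and Prkag3 is the muscle-specific gamma subunit of AMP-activated kinase. Their mean differences at days 1, 3, and 7 were -0.20, 0.31, and 0.38 for Rbks, -0.09, 0.25, and 0.28 for Fam92a, 0.07, 0.47, and 0.52 for Uxs1, and -0.57, 1.97, and 2.2 for Prkag3. These are descriptions over 9 pairs of libraries that share their days, picked as the highest of all genes.

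Markers of other cells were read beside these results. The neutrophil list (S100a8, S100a9, Csf3r, and Cxcr2) summed to 33.5 to 317 TPM on the sham side and 367 to 1433 TPM on the denervated side at day 3, and to 43.7 to 243 and 1356 to 2648 TPM at day 7. Of its 4 genes, 1 (S100a8) rose at day 7 and over all days. The fitted difference was positive for 3 genes and negative for 1 at day 3 and over all days, and positive for all 4 at day 7. At an unadjusted p under 0.05 the count was 1 of 4 at day 3 and 1 of 4 at day 7, compared with 14.7% and 12.3% of all genes. The summed level thus does not speak for every gene of the list, and bulk biopsies do not show which cells held this RNA. Of the skeletal muscle list, 1 of 8 (Ckm) was called lower at day 7, and the list summed to 28815 to 33446 TPM on the sham side and 27077 to 31131 TPM on the denervated side. The lists for macrophages (5 genes), fibroblasts (4), Schwann cells (4), keratinocytes (5), hair follicle (5), and cycling cells (4) had 0 called genes at any day or over all days (limma). At an unadjusted p under 0.05 the day 3 counts of these lists were 1, 0, 0, 0, 3, and 0, and their day 7 counts were 1, 1, 1, 2, 0, and 0. The hair follicle list summed to 1585 to 3119 TPM on the sham side and 543 to 1332 TPM on the denervated side of day 3, with a median fold change of -1.20, and for 5 of 5 of its genes the denervated side lay wholly below the sham side (9.82% of all genes). The part of these cells in the differences of Sms, Odc1, Atp13a3, and the transcript Oaz2-206 was not tested.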

How the data were processed

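RNA of 18 whisker pad biopsies (9 mice, both sides) was sequenced by the authors from Illumina TruSeq libraries. Per the methods, reads were demultiplexed (bcl2fastq 2.17.1.14), freed of duplicates, trimmed, and quantified with kallisto 0.43.1 on the Ensembl GRCm38 transcripts. The deposited signal values are TPM per transcript that the authors normalized between samples, and they sum to 833186 to 1143839 per sample, not to 1 fixed total as plain TPM would. They hold no read counts, so depth and counting error are unknown, and precision rests on 3 mice per group. A plan written for plain TPM was kept unchanged.

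Of 113194 transcripts, 98.46% (99.48% of the signal) matched GENCODE M21 (GRCm38) and were summed into 35150 genes. The day 7 columns were tied to samples through library numbers that the titles also carry. Genes that reached 1 TPM in 47% or more of the samples compared were tested on log2(TPM + 0.5) with limma 3.58.1 (R 4.3.3, mean-variance trend), p-values being adjusted (Benjamini-Hochberg) over all genes tested, with 0.05 as threshold. Each day was fitted alone (3 against 3), all days with day as a term, and differences between days or among sham samples in 1 fit of 18. Within-mouse differences were set against all 512 sign flips. The scripts were tested on simulated data.

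Both sides came from the same mouse, and samples of a mouse deviated together (residual correlations 0.163 to 0.568 in 9 of 9 mice). The main limma fits held no term for the mouse and took its sides as independent. Fits blocked on the mouse were run as an alternative. Others were pseudocounts, filters, scalings, protein-coding transcripts alone, no trend, 1 fit of all samples, and leaving out each mouse. The 9 genes and all lists were chosen with earlier results of these data known. Named were the 9 genes, every other pathway gene that passed at day 3, day 7, or over all days, and the 4 genes most like a member called at day 3 or 7 (Pearson's r of the within-mouse differences). Slc22a3, Mat2a, and single marker genes were named outside this rule, after their values were seen. Sequences came from GENCODE M21 transcripts and RefSeq promoters (GRCm38.p6). Intervals are 95% intervals.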

Additional observations from a re-analysis of the deposited data

Results flagged for a closer look

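The effect of denervation on 2 polyamine transporters differed between days by a test of the difference itself (limma, 18 samples, adjusted over all genes). For Atp13a3 the effect at day 3 was larger than that at day 1 by 1.43 ± 0.23 (SE, adjusted p = 0.023), and the effect at day 7 was larger than that at day 1 by 1.37 ± 0.23 (adjusted p = 0.027, or 0.054 when blocked on the mouse). For Slc22a3 the effect at day 7 differed from that at day 1 by -2.86 ± 0.46 (adjusted p = 0.019). Its sham values at day 1 were 0.394 to 0.802 TPM, so this contrast rests in part on values near the floor. When each of the 6 mice compared was left out in turn, the call for Atp13a3 was lost in 4 of 6 fits for days 1 and 3 (adjusted p 0.072 to 0.178 there) and in 6 of 6 fits for days 1 and 7 (adjusted p 0.054 to 0.238), and that for Slc22a3 in 5 of 6 fits (adjusted p 0.061 to 0.199), all but the one without the muscle-poor mouse 1 of day 1 (-3.03, adjusted p = 0.011). Scaling to the muscle markers ended all 3 calls (Atp13a3 1.49 for days 1 and 3 and 1.44 for days 1 and 7, adjusted p = 1.0 for both, and Slc22a3 -2.99, adjusted p = 0.093), and equal sums ended that of Atp13a3 for days 1 and 7 (1.36, adjusted p = 0.052). None of the 9 polyamine genes had a mouse that stood apart from the other 8 in its difference between the sides by Dixon's 95% limit.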

How the results depend on the processing

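Outside the fits that left out a mouse, 675 values were recomputed for 65 results under 11 alternatives, and 619 of them kept their direction and their side of the threshold. The rise of Sms at day 7 kept both in all 11 (0.92 to 1.25, adjusted p 0.0047 to 0.048). The count of genes called at day 3 was 1 in 1 fit of all 18 samples, in place of 0. The count over all days was 0 in place of 1 (Odc1) with a filter of TPM above 0 (adjusted p = 0.052), with equal sums (0.051), with muscle scaling (0.870), and with protein-coding transcripts alone (0.084). The count between days 1 and 7 on the sham side was 0 in place of 1 (Oaz2) with a filter of TPM above 0, median-of-ratios scaling, equal sums, muscle scaling, the mouse block, or no trend, with adjusted p 0.050 to 0.282. Of transcripts, 0 were called at day 3 with the mouse block and 0 at day 7 with a filter of TPM above 0, the mouse block, or no trend, and 2 at day 7 in 1 fit of 18 samples. Blocking on the mouse changed no call of the 9 genes other than Oaz2 on the sham side (adjusted p = 0.051). The cause of these changes was not tested.

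The values given next turned in sign. Muscle scaling, which moved the median of all genes by 0.05, 0.11, 0.14, and 0.10 at days 1, 3, and 7 and over all days, gave Oaz2 0.027, 0.026, 0.060, and 0.038 there, Srm 0.068 and Paox 0.073 at day 7, and Paox 0.058 and Smox 0.092 over all days. It turned the called rise of Oaz2 between sham days 1 and 7 from 0.62 to -0.52, where it moved the median of all genes by -1.09. Equal sums gave Amd1 -0.044 and Srm -0.050 at day 3, and median-of-ratios scaling gave Amd1 -0.042 at day 7. Protein-coding transcripts gave Sat1 0.0046 and Smox 0.061 at day 7 and Smox 0.027 over all days.

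Leaving out each mouse, the counts called were 0 to 0 at day 7, 0 to 2 over all days, 0 to 1 for days 1 and 3 and 0 to 1 for days 1 and 7 (2 over all days and 1 in each of the others without mouse 1 of day 1), 0 to 1 for sham days 7 and 1, and 0 to 0 for transcripts at days 3 and 7. Ranges that crossed 0 were -0.20 to 0.15 for Oaz2 at day 1, -0.030 to 0.068 for Amd1 and -0.076 to 0.074 for Srm at day 3, -0.089 to 0.076 for Amd1 and -0.17 to 0.0028 for Srm at day 7, and -0.086 to 0.052 for Smox and -0.11 to 0.016 for Paox over all days.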
